A study of Oryza sativa with 8 samples.

Results

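The genes described are 6 protein kinase loci of rice (Oryza sativa) that act in signalling after wounding and insect attack, out of 55986 gene models counted. They were picked by their locus identifiers in the MSU release 7 annotation, with a rule that uses no measured value, although earlier results of these data were known when the rule was written. They are the MAP kinases MPK3 (LOC_Os03g17700), MPK4 (LOC_Os10g38950) and MPK6 (LOC_Os06g06090), the MAP kinase kinases MKK4 (LOC_Os02g54600) and MKK5 (LOC_Os06g09180), and the receptor kinase LRR-RLK1 (LOC_Os06g47650). All 6 were found in both count tables.

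Stem tissue was sequenced from a pair of rice lines, SM92, which tolerates the yellow stem borer, and SM, which is susceptible to it. The yellow stem borer is a moth whose larvae feed inside the rice stem. Plants were grown in the field to the booting stage, when the panicle is still inside the leaf sheath, and larvae were placed on their tillers by hand. Stem pieces from the attacked zone were cut 72 hours later, and uninfested plants were cut at the corresponding time. The labels list 2 libraries each of infested SM92, uninfested SM92, infested SM and uninfested SM. How the lines are related, and whether replicates are separate plants, is not given in the labels.

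The count table of each line is named in its samples' labels, so every library could be assigned to SM92 or to SM. Nothing ties a library to infested or uninfested plants, and this was not guessed from the counts. The comparison made here is therefore SM92 against SM over all libraries, with 4 libraries a line, of which the labels make 2 infested and 2 uninfested. The response of the kinase genes to the larvae was not analysed here. The libraries of each line are called a, b, c and d in the order of the table, and these letters stand for neither infestation nor replicate.

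MAP kinase cascades carry a signal from receptors at the cell surface to proteins in the cell by successive phosphorylation. A MAP kinase kinase such as MKK4 or MKK5 activates a MAP kinase such as MPK3 or MPK6, and the activated kinase phosphorylates transcription factors and enzymes. In rice, wounding and chewing or boring insects activate this route ahead of the hormones jasmonate and ethylene, and LRR-RLK1, a receptor with leucine-rich repeats, is known to act above the cascade in rice attacked by a stem borer. The cascade is switched by phosphorylation, which RNA sequencing does not measure, so the values below are transcript levels only.

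Library totals ran from 50540724 to 53268945 counted fragments in SM92 and from 53628824 to 57603629 in SM. Some libraries of a line were nearly the same. Between SM92-a and SM92-b the mean chi-square per gene was 1.86, between SM92-c and SM92-d 1.62, and between SM-c and SM-d 3.12, where sampling noise alone gives about 1. The other pairs of libraries within a line ranged from 95.7 to 342, and the lowest of these was SM-a with SM-b. The libraries of each of the 3 close pairs still differed by more than sampling noise, which does not show that they are independent. They were counted separately in the main fit, whose SDs, standard errors and p-values treat them as independent. Each gene's difference between the lines is also given with the close pairs summed, which leaves 2 SM92 and 3 SM libraries. Ranges, ranks, ratios and profiles are given for the 8 libraries only. P-values measure only the spread between these libraries, which may in part be technical.

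The labelled tissue was checked with 4 loci listed from general knowledge as markers of stems with thickening cell walls. All 4 had counts in all libraries. Their summed level was 88.8 to 257 CPM (counts per 1000000 fragments of a library's total over the tested genes, scaled by edgeR's TMM factors) in SM92 and 283 to 997 CPM in SM, and all 4 tested lower in SM92. With the close pairs summed, edgeR called 0 of the 4, against 8.71% of the genes tested. All 4 had an unadjusted p under 0.05 there, and the share of all genes under that unadjusted threshold was not worked out. The level of this list also differed inside the lines. In SM92 it was 88.8 and 89.4 CPM in libraries a and b, and 257 and 255 CPM in c and d. In SM it was 283 CPM in library b, against 971 to 997 CPM in the other 3. A pair of loci listed as markers of green tissue summed to 104 to 152 CPM in SM92 and 35.0 to 55.8 CPM in SM. Their log2 differences were 0.55 and 2.21. In edgeR's test 1 of them passed and 1 did not, against 36.0% of the genes tested. With the close pairs summed, 0 of them passed. The summed levels of both marker lists thus moved together with the line, and the part of either list in the differences below was not tested. In bulk tissue, a change in the share of a cell type and a change in RNA per cell cannot be told apart.

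The members lie on 4 chromosomes, 3 of them on chromosome 6. MPK3 spans chromosome 3 from 9847700 to 9850473 on the minus strand, and MPK4 spans chromosome 10 from 20756089 to 20760021 on the plus strand. On chromosome 6, MPK6 runs from 2806543 to 2813004 on the minus strand, MKK5 from 4616608 to 4618211 on the plus strand, and LRR-RLK1 from 28853371 to 28856936 on the plus strand. MKK4 spans chromosome 2 from 33442069 to 33443948 on the minus strand. The counted feature was the whole gene span, so introns and untranslated regions are included. MPK4 is the only member that shares bases with another gene model. The 420 shared bases lie on the opposite strand from LOC_Os10g38954, which had 0 to 5 counts in SM92 libraries and 2 to 6 in SM libraries. Rice MAP kinases carry several numbering systems. In the RefSeq gene table, the name MPK3 occurs on chromosomes 2 and 3, MPK4 on chromosome 6 and MPK6 on chromosome 10, so no name was taken from that table and the locus identifiers above define the genes.

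MPK3, which acts at the end of the cascade and is activated by wounding in rice, had the highest level of the 6, in CPM and per length. It had 15029, 15117, 17992 and 18194 counts in SM92 libraries a to d, against 10869, 12484, 12602 and 11641 counts in SM libraries a to d. All 4 SM92 libraries were above all 4 SM libraries, and within SM92 libraries c and d were above a and b. On the CPM scale these counts were 285, 282, 404 and 404 in SM92 and 191, 210, 209 and 205 in SM. MPK3 averaged 344 ± 69.5 CPM in SM92 and 204 ± 8.68 CPM in SM (SD, n = 4 each), a log2 difference of 0.75 ± 0.16 (SE), or 1.69-fold. In edgeR's quasi-likelihood test this difference passed the threshold (adjusted p = 0.00715). It also passed whichever library was left out and on library totals without TMM factors, where the log2 difference was 0.57. These fits still counted libraries of close pairs separately, and a left-out library of a close pair kept its near-copy in the fit. With the close pairs summed the log2 difference was 0.77 and the adjusted p was 0.104, so the call was lost. Over all the alternatives tried, the adjusted p ran from 6.71e-05 to 0.104.

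MPK6, the other MAP kinase that rice activates on wounding, had 5937, 6150, 5451 and 5209 counts in SM92 libraries a to d and 5411, 5719, 6119 and 5608 counts in SM libraries a to d. The raw counts overlap. Divided by library totals alone, MPK6 still overlapped, at 102 to 115 per 1000000 fragments in SM92 and 101 to 106 in SM. With the TMM factors the lines separated, and its level was 113, 115, 122 and 116 CPM in SM92, against 95.2, 96.3, 101 and 98.9 CPM in SM. The means were 116 ± 4.23 CPM in SM92 and 97.9 ± 2.77 CPM in SM (SD, n = 4 each), and the log2 difference was 0.25 ± 0.08 (SE), or 1.19-fold. The adjusted p in edgeR's test was 0.0434, just inside the threshold of 0.05. Leaving out any 1 of the 8 libraries moved it to between 0.0574 and 0.108, so the call was lost in every such fit. The log2 difference in those fits, each with fewer libraries, stayed at 0.23 to 0.27. With the close pairs summed the adjusted p was 0.365. On library totals without TMM factors the log2 difference was 0.08 and the adjusted p was 0.498. Over all the alternatives tried, the adjusted p ran from 0.000316 to 0.498.

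MPK4, a MAP kinase whose counterpart in Arabidopsis restrains immune responses, had 2248, 2410, 1994 and 1977 counts in SM92 libraries a to d and 2393, 3124, 2433 and 2193 counts in SM libraries a to d. Its level was 42.7 to 45.0 CPM in SM92 and 38.7 to 52.6 CPM in SM, where library b was the highest. The SM92 libraries lay inside the range of the SM libraries. The log2 difference was 0.02, with a 95% interval from -0.24 to 0.28, and the adjusted p in edgeR's test was 0.899. It was -0.01 (adjusted p = 0.980) with the close pairs summed and -0.15 (adjusted p = 0.415) on library totals without TMM factors. Over all the alternatives tried, the adjusted p ran from 0.234 to 0.980.

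**Figure D1:**
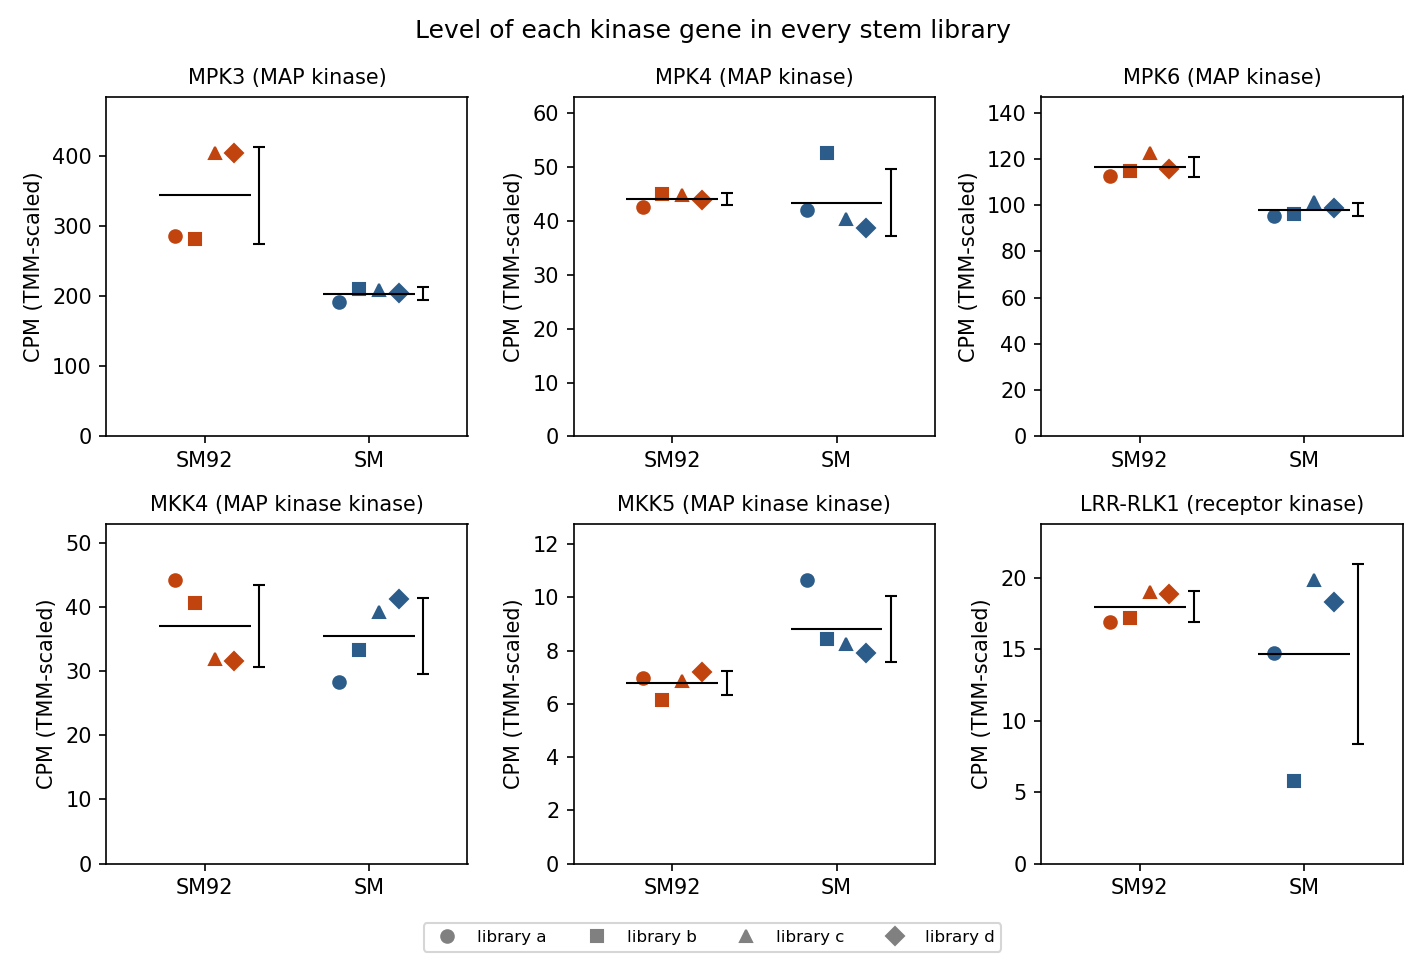
Level of each kinase gene in CPM (vertical axis, from 0, TMM-scaled) in the 4 SM92 and the 4 SM libraries; symbols are libraries a to d, horizontal lines are means and bars are SDs. For MPK3 the SM92 libraries lie between 282 and 404 CPM, above the SM libraries at 191 to 210 CPM, and for LRR-RLK1 library b of SM lies at 5.81 CPM, below all others.

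Of the 6 members, 2 passed the test between the lines, and both were higher in SM92, the MAP kinases MPK3 and MPK6. Of the 24892 genes tested, 36.0% passed, 16.5% higher and 19.5% lower in SM92, so the members' count stands near the background. Of the calls, 45.7% were higher in SM92. On library totals without TMM factors this share was 32.1%, and the median log2 difference of all genes was -0.16. There 9126 of the 24892 genes passed, and MPK3 and MKK5 were the members among them. With the close pairs summed, edgeR called 0 of the 6, against 8.71% of 27531 genes tested. Of the members, only MPK3 had an unadjusted p under 0.05 there. The share of all genes under that unadjusted threshold was not worked out. The libraries of the lines did not overlap in TMM-scaled CPM for 3 of the 6 members, MPK3, MPK6 and MKK5, against 40.6% of the genes tested. Of these members, 2 were higher in SM92, where 19.4% of the genes tested did the same, and 1 was lower, where 21.2% did. On library totals without TMM factors, MPK6 overlapped while MPK3 and MKK5 still did not. The share of all tested genes without overlap on that scale was not worked out. The members' median log2 difference was 0.16, and that of all genes tested was 0.00.

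The MAP kinase kinases stand above MPK3 and MPK6 in the cascade. MKK4, which activates both and is also known for its part in rice grain size, had 2326, 2174, 1418 and 1419 counts in SM92 libraries a to d, against 1605, 1976, 2366 and 2336 counts in SM libraries a to d. In SM92 libraries a and b were the high ones, at 44.2 and 40.6 CPM, and c and d lay at 31.9 and 31.5 CPM. In SM library a was the lowest at 28.2 CPM and library d the highest at 41.2 CPM, so the lines overlapped over most of their range. MKK4 averaged 37.0 ± 6.34 CPM in SM92 and 35.5 ± 5.89 CPM in SM (SD, n = 4 each). The log2 difference was 0.06, with a 95% interval from -0.32 to 0.45, and the adjusted p was 0.803. It was 0.14 (adjusted p = 0.775) with the close pairs summed and -0.09 (adjusted p = 0.760) on library totals without TMM factors. Over all the alternatives tried, the adjusted p ran from 0.601 to 0.945.

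MKK5, the close relative of MKK4, had the lowest mean CPM of the members. It had 368, 330, 305 and 324 counts in SM92 libraries a to d and 605, 502, 497 and 448 counts in SM libraries a to d. All 4 SM92 libraries, at 6.16 to 7.19 CPM, were below all 4 SM libraries, at 7.90 to 10.6 CPM. The means were 6.80 ± 0.449 CPM in SM92 and 8.81 ± 1.24 CPM in SM (SD, n = 4 each), and the log2 difference was -0.37 ± 0.14 (SE). In edgeR's test this did not pass (adjusted p = 0.0639), nor with the close pairs summed (log2 difference -0.40, adjusted p = 0.350). It did pass in DESeq2's Wald test (adjusted p = 0.0183) and on library totals without TMM factors (log2 difference -0.54, adjusted p = 0.0193). Over all the alternatives tried, the adjusted p ran from 0.0183 to 0.350.

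LRR-RLK1, the receptor kinase above the cascade, had 890, 920, 846 and 850 counts in SM92 libraries a to d, against 837, 345, 1197 and 1039 counts in SM libraries a to d. The SM92 libraries lay close together at 16.9 to 19.0 CPM. The SM libraries were spread from 5.81 CPM in library b to 19.8 CPM in library c, and they enclosed the SM92 range. The means were 18.0 ± 1.11 CPM in SM92 and 14.7 ± 6.28 CPM in SM (SD, n = 4 each). The log2 difference was 0.29, with a 95% interval from -0.48 to 1.07 and an adjusted p of 0.531 in edgeR's test. Without library SM-b it was 0.03 (adjusted p = 0.876), so that library set most of the difference between the means. With the close pairs summed it was 0.45 (adjusted p = 0.632), and over all the alternatives tried the adjusted p ran from 0.369 to 0.876. Library SM-b was also the SM library with the lowest summed level of the wall markers and the highest MPK4 level, and whether these go together was not tested.

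**Figure D2:**
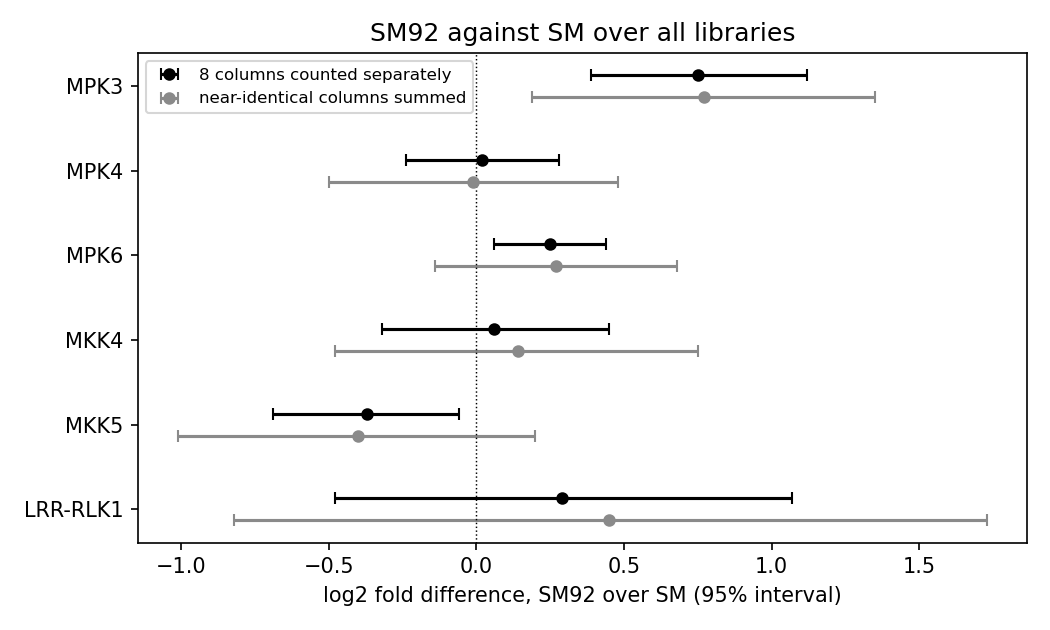
Log2 fold difference of SM92 over SM (horizontal axis) for each of the 6 kinase genes with its 95% interval, with 8 libraries counted separately (black) and with the close pairs summed (grey). The black intervals of MPK3 (0.39 to 1.12) and MPK6 (0.06 to 0.44) lie above 0 and that of MKK5 (-0.69 to -0.06) lies below it before adjustment over all genes, while those of MPK4, MKK4 and LRR-RLK1 include 0. Of the grey intervals only that of MPK3 (0.19 to 1.35) excludes 0, while those of MPK6 (-0.14 to 0.68), MKK5 (-1.01 to 0.20) and the other members include it.

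Inside a line the members also varied by different amounts in TMM-scaled CPM. In SM92 the highest library exceeded the lowest 1.43-fold for MPK3 and 1.40-fold for MKK4, in opposite directions, since MPK3 was higher in libraries c and d and MKK4 in a and b. Of the 15575 tested genes with a mean of at least 5 CPM, 62.6% had a lower ratio than MPK3 and 60.0% a lower one than MKK4. The ratio in SM92 was 1.05 to 1.17 for MPK4, MPK6, MKK5 and LRR-RLK1. In SM the ratio was 3.41 for LRR-RLK1, 1.46 for MKK4, 1.36 for MPK4, 1.35 for MKK5, 1.10 for MPK3 and 1.06 for MPK6. Of the same genes, 91.9% had a lower ratio in SM than LRR-RLK1 and 1.59% a lower one than MPK6. By this ratio MPK6 was the steadiest member in SM and LRR-RLK1 the most variable one. Each gene's biological coefficient of variation in edgeR is a fitted spread within lines, drawn toward that of genes of similar level. It is not the gene's own observed spread, and it counts libraries of close pairs separately. For MPK6 it was 0.156, and 0.599% of the tested genes were below that value. For LRR-RLK1, at 0.356, 68.2% were below.

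Ratios of counts inside a library do not depend on how libraries are scaled. The ratios that follow were chosen after the values had been seen and are a description. MPK3 had 2.53, 2.46, 3.30 and 3.49 times the counts of MPK6 in SM92 libraries a to d, against 2.01, 2.18, 2.06 and 2.08 times in SM libraries a to d. The SM92 libraries were above all SM libraries, and the ratio in SM was nearly constant. The lines also separated for MPK3 to MPK4, with 6.27 to 9.20 in SM92 and 4.00 to 5.31 in SM. Both ratios share MPK3, so they are not separate observations. The share of gene pairs that separate the lines in this way was not worked out. The ratio of MKK4 to MKK5 was 6.32, 6.59, 4.65 and 4.38 in SM92 libraries a to d and 2.65, 3.94, 4.76 and 5.21 in SM libraries a to d, and here the lines overlapped.

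**Figure D3:**
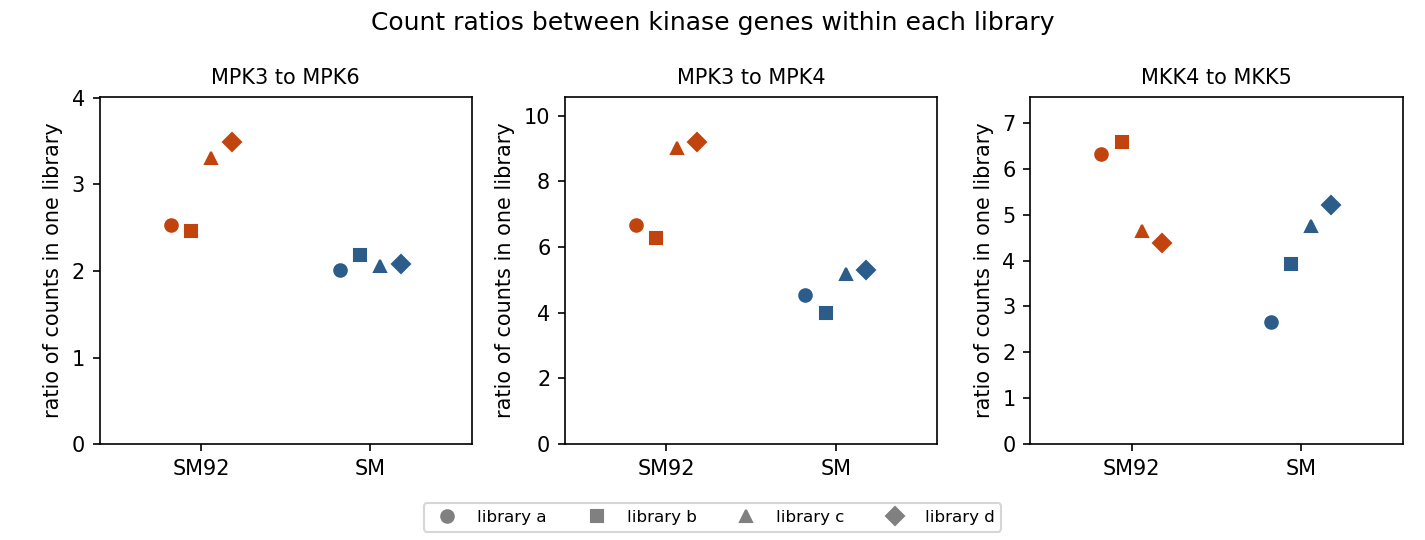
Ratio of the counts of a pair of kinase genes within a library (vertical axis, from 0) in the SM92 and SM libraries; symbols are libraries a to d. For MPK3 to MPK6 the SM92 libraries lie between 2.46 and 3.49, above the SM libraries at 2.01 to 2.18, and for MKK4 to MKK5 the lines overlap.

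Levels of different genes were compared as CPM per kb of gene span, a scale that counts introns as length. MPK3 stood far above the others, with a mean level of 124 CPM per kb in SM92 and 73.5 in SM. MKK4 and MPK6 came next and overlapped in both lines: MKK4 lay at 16.8 to 23.5 CPM per kb in SM92 and 15.0 to 21.9 in SM, and MPK6 at 17.4 to 18.9 in SM92 and 14.7 to 15.7 in SM. MPK4 followed, with 10.9 to 11.4 CPM per kb in SM92 and 9.84 to 13.4 in SM, below the range of MPK6 in both lines. The lowest places were held by LRR-RLK1 and MKK5. In SM92 LRR-RLK1, at 4.74 to 5.33 CPM per kb, was above MKK5 at 3.84 to 4.48, whereas in SM LRR-RLK1, at 1.63 to 5.56, overlapped MKK5 at 4.93 to 6.63. By mean CPM, MPK3 exceeded 97.9% of the tested genes, MPK6 92.3%, MPK4 79.7%, MKK4 76.5%, LRR-RLK1 60.1% and MKK5 45.3%.

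Within their families, the members were set beside 12 other loci listed as rice MAP kinases and 6 listed as MAP kinase kinases from general knowledge; the deposited tables give no names for these loci. Among the 15 MAP kinase loci, MPK3 ranked 1 in CPM per kb in every library of both lines. By mean level MPK6 ranked 5 in SM92 and 8 in SM, and MPK4 ranked 9 in SM92 and 10 in SM. In single libraries MPK6 ranked 5 to 6 in SM92 and 7 to 8 in SM, and MPK4 ranked 9 to 10 in SM. The locus next to MPK6 in mean rank averaged 17.3 CPM per kb in SM92 and 15.7 in SM, against 18.0 and 15.2 for MPK6. Among the 8 MAP kinase kinase loci, MKK4 ranked 2 in every library, below LOC_Os01g32660, whose mean level was 41.3 CPM per kb in SM92 and 34.8 in SM. By mean level MKK5 ranked 6 in SM92 and 5 in SM, where it ranked 4 to 5 in single libraries. Without division by gene span the order differed. The MAP kinase locus LOC_Os01g47530 averaged 448 ± 43.1 CPM against 344 ± 69.5 for MPK3 in SM92, and 213 ± 42.5 against 204 ± 8.68 in SM (SD). The MAP kinase kinase locus LOC_Os06g27890 averaged 80.3 CPM against 37.0 for MKK4 in SM92, and both averaged 35.5 in SM.

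Of the 18 other family loci, 16 had enough counts to be tested, and the remaining 2, both MAP kinase kinases, had at most 6 counts in any library. Between the lines 3 of the 16 were higher in SM92, 4 were lower and 9 did not pass, near the background given above. The median log2 difference of the 16 was 0.15. With the close pairs summed, 2 of the 16 passed, 1 in each direction, against 8.71% of the 27531 genes tested in that fit. The locus with the largest rise was LOC_Os06g27890, listed as a MAP kinase kinase, at 80.3 ± 8.31 CPM in SM92 and 35.5 ± 3.66 CPM in SM (SD, n = 4 each), a log2 difference of 1.18 (adjusted p = 0.000219 in edgeR's test). The MAP kinase locus LOC_Os01g47530 followed, at 448 ± 43.1 CPM in SM92 and 213 ± 42.5 CPM in SM, a log2 difference of 1.07 (adjusted p = 0.00181). The largest fall was that of the MAP kinase locus LOC_Os11g17080, at 9.43 ± 0.605 CPM in SM92 and 23.7 ± 2.66 CPM in SM, a log2 difference of -1.33 (adjusted p = 0.000111). LOC_Os05g50560, also a MAP kinase locus, differed by -0.71 (adjusted p = 0.00727). With the close pairs summed, LOC_Os06g27890 (adjusted p = 0.0260) and LOC_Os11g17080 (adjusted p = 0.0296) still passed, while LOC_Os01g47530 (0.0693) and LOC_Os05g50560 (0.152) did not.

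**Figure D4:**
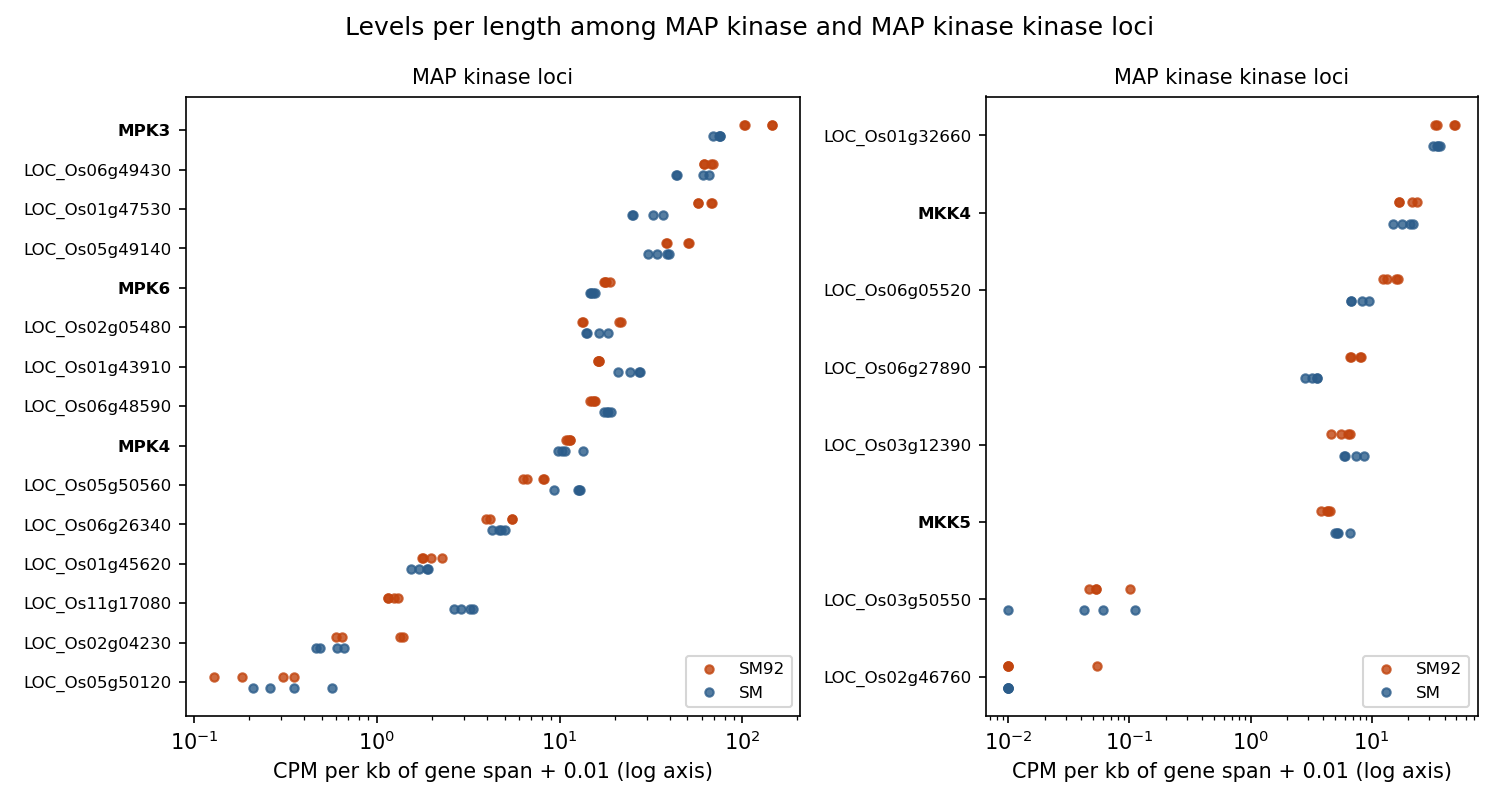
Level of each MAP kinase locus (left) and MAP kinase kinase locus (right) in CPM per kb of gene span plus 0.01 (horizontal log axis), with 1 point for each of the 4 SM92 and 4 SM libraries, ordered by the SM92 mean; the members are in bold. On this scale of gene span, MPK3 is the highest MAP kinase locus in both lines, and MKK4 the second of the 8 MAP kinase kinase loci.

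The gene whose profile over the 8 libraries came closest to each member was found from the root mean square difference of centred log2(CPM + 0.5) values among the other 24891 genes tested. For MPK3 it was LOC_Os11g38800, at 0.048 log2 units, where the median gene differed from MPK3 by 0.54. For MPK6 it was LOC_Os08g33850 at 0.033, and for MPK4 LOC_Os01g01830 at 0.032. For MKK4 it was LOC_Os04g48880 at 0.051, and for MKK5 LOC_Os03g11220 at 0.059. LRR-RLK1 had the most distant closest gene, LOC_Os03g11300 at 0.122. Its own distance to the other 5 members was 0.47 to 0.63, where the median gene differed from it by 0.66. Such distances also grow with how much a gene varies over the libraries. Among the members, MPK4 and MPK6 were the closest pair, at 0.17, and MPK4 and LRR-RLK1 the farthest, at 0.63. These distances rest on 8 libraries that share depth and close pairs, and the deposited tables give no names for the genes found.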

How the data were processed

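Libraries were made from stem total RNA with a reversely stranded kit that removes ribosomal RNA, per the labels' protocols. The deposited values are raw fragment counts per gene, made by the authors with featureCounts 2.0.0 on MSU release 7 gene models with strand option 2, per the file headers. The headers show no option that counts multiply aligned fragments. Trim Galore and STAR are named in the submitters' processing notes, without settings. No count column carries an infestation or replicate label, so the infestation contrasts and their alternatives were not run, and 0 count columns were left unused in the line comparison.

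Both tables were joined by identifier. Genes were filtered with filterByExpr, scaled by TMM and tested with edgeR 4.0.16 (quasi-likelihood, robust, R 4.3.3) for line alone, with Benjamini-Hochberg adjustment over all 24892 genes tested. A gene passed at an adjusted p under 0.05. Standard errors and 95% intervals come from the F statistic. The spread within a line includes any infestation difference. Scripts were tested on simulated counts of independent libraries without close pairs, which cannot show how such pairs affect the p-values. Alternatives used DESeq2 1.42.0, limma 3.58.1, other scaling (library totals alone among them) and filters, and leaving out each library. The genes named are the 6 members, at most 2 other family loci in each direction with the largest called differences, and the closest profile to each member. LOC_Os01g32660 and LOC_Os10g38954 were named after their values were seen. The members and lists were chosen with earlier results of these data known. Of 55986 identifiers, 0 matched the RefSeq gene table (ASM3414082v1).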

Additional observations from a re-analysis of the deposited data

How the results depend on the processing

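No paired analysis was possible because replicate numbers are attached to no library in the tables. In all, 16 alternatives were run. MPK3 kept its direction in all 16 (log2 0.57 to 0.84) and its call in 15. Those 15 all counted libraries of close pairs separately, and the call was lost with the close pairs summed. MPK6 kept its direction in all 16 (0.08 to 0.28) and passed in 5. It was lost without a filter on low counts (0.25, with 44672 genes tested) and in each fit that left out a library (0.23 to 0.27). MKK5 stayed lower in SM92 in all 16 (-0.54 to -0.27) and passed in 2, of which DESeq2 gave -0.36. Fits that left out a library gave -0.43 to -0.27. LRR-RLK1 passed in none (0.03 to 0.47). MKK4 and MPK4, which passed in none, changed sign in some fits that left out a library (-0.03 to 0.14 for MKK4 and -0.03 to 0.13 for MPK4), all near 0. Those fits called 7268 to 9612 genes.

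Summing the close pairs and using library totals without TMM factors were chosen after seeing the data. On totals, 9126 genes passed, 2929 higher and 6197 lower in SM92, against 4096 and 4866 with the factors. There MPK6 was lost (0.08), MKK5 passed (-0.54), and MPK4 (-0.15) and MKK4 (-0.09), which did not pass, changed sign, while the median of all genes lay at -0.16. Summing leaves 5 libraries, and the genes called moved from 8962 to 2399, with 1104 higher and 1295 lower in SM92. MPK3 (0.77) and MPK6 (0.27) kept their direction but no longer passed, and MPK4 stood at -0.01.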
